A study of Mus musculus with 5 samples.

Results

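The group described here is Arid1a and 9 partner subunits of the SWI/SNF chromatin remodelling complexes: Arid1b, Arid2, Pbrm1, Smarca2, Smarca4, Smarcb1, Smarcc1, Smarcc2 and Smarce1. Genes were taken by symbol, not by their measured values, and all 10 were found among the 23284 symbols of the count tables. The cells were primary pancreatic acinar cells, which make and secrete digestive enzymes, taken from C57BL/6 mice aged 8 weeks. There were 2 libraries of genotype p48-Cre (control) and 3 of genotype Arid1afl/fl;p48-Cre (knockout). Both groups carry p48-Cre, in which Cre recombinase is driven from the p48 (Ptf1a) locus of pancreatic cells, so cells of other lineages in the preparation keep an intact Arid1a. The labels do not give the floxed exons, and they do not say whether each library came from its own animal. The p-values therefore measure only how far these libraries spread, and that spread may be technical.

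SWI/SNF complexes use ATP to slide or evict nucleosomes and so open enhancers and promoters. Each complex holds a single ATPase, either Smarca4 or Smarca2. In the canonical BAF and PBAF forms it sits on a shared core that includes Smarcb1, Smarce1 and a dimer made of Smarcc1, Smarcc2 or both. The canonical BAF form carries Arid1a or Arid1b, which exclude each other, and the PBAF form carries Arid2 and Pbrm1. In the pancreas, Arid1a is known as a tumour suppressor and as a keeper of acinar identity, and the paralogue Arid1b is known as the subunit that cells without Arid1a come to rely on.

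Because the comparison of paralogues rests on reads being assigned to the right copy, the longest stretch that each pair shares in its coding sequence is shown first. Sequences are from the longest coding transcript of each gene in GENCODE M21 (build GRCm38), 5′ to 3′, with the shared run in capitals and up to 15 flanking bases on each side.
Arid1a: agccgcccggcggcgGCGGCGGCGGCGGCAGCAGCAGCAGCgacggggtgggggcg
Arid1b: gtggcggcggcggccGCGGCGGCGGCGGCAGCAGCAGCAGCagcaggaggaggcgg
Smarca4: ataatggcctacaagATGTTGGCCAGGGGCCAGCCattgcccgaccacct
Smarca2: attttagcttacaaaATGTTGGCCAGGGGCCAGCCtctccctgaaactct
Smarcc1: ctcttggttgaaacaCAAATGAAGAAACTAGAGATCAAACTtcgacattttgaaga
Smarcc2: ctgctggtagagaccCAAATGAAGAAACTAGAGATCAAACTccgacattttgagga
The shared runs were 26, 20 and 26 bases long for the ARID, ATPase and Smarcc pairs, and the run of the ARID pair is a low-complexity repeat of GGC and AGC triplets. Aligned coding bases were identical at 67.4%, 73.7% and 68.5% of positions in the 3 pairs. No word of 50 bases occurred in the longest transcripts of both members of any pair. The sources used here give neither the read length nor the treatment of multiply mapped reads. Smarce1 was the exception among the 10 genes, since 35.1% of its 50-base words also occurred in 5 other annotated genes, among them the pseudogene Smarce1-ps1, and its counts are uncertain. For the other 9 genes this share was at most 3.23%, the value of Smarcc1. Exons of Pbrm1, Smarca2 and Smarcc1 overlapped those of the opposite-strand genes Gnl3, 4931403E22Rik and Dhx30 by 15, 40 and 123 bases, and the library kit does not mark strand.

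Depth differed widely between the 2 groups. Values are given as CPM, the usual scaled count, relative to a library's total without the ribosomal RNA precursor Rn45s and without Lars2. That total was 67514 and 72006 in the controls and 3155357 to 3568906 in the knockouts, and Rn45s alone took 72.6% and 82.2% of all control counts against 6.8% to 10.9% in the knockouts. One count thus stood for 14.8 and 13.9 CPM in the controls but for 0.28 to 0.317 CPM in the knockouts. A count of 0 allowed a level of up to 3 counts, or 44.4 CPM in control 1 and 41.7 CPM in control 2. Depth and Rn45s share separated the libraries as genotype did, so genotype and library quality cannot be told apart in any comparison between the groups. Acinar enzyme and granule genes took 66.8% to 87.7% of the counts left in each library, and Ctrb1, a chymotrypsinogen, had the highest count in each once Rn45s and Lars2 were set aside. The labelled cell type thus had its defining transcripts in all 5 libraries.

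Arid1a RNA, the target of the knockout, was present in every library labelled knockout. It had 0 and 3 control counts and 44, 121 and 42 knockout counts, equal to 0 and 41.7 CPM against 13.9, 33.9 and 12.6 CPM. The knockout values lay within the range of the controls. At the pooled knockout share, 2.87 counts were expected in both controls together and 3 were found. The fitted log2 fold change was -0.07 ± 1.64 (SE; edgeR quasi-likelihood test, adjusted p = 0.985), and the sign turned in 9 of 15 alternatives, so neither a fall nor a rise was detectable at this depth. A gene-level count also takes in exons that Cre leaves in place and is no check of the genotype labels. Any cells of other lineages in the preparation could contribute intact Arid1a RNA too, and their part was not tested.

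Within the knockouts Arid1a was the second most counted of the 10 subunits in 3 of 3 libraries, behind Smarcc2. It made up 15%, 13.7% and 16.6% of all subunit counts in knockouts 1, 2 and 3, with exact Clopper-Pearson 95% intervals of 11.1 to 19.6%, 11.5 to 16.1% and 12.2 to 21.8%. The 3 intervals overlap, whereas the CPM of Arid1a differed 2.7-fold between knockouts 2 and 3. In control 2 the share was 4.0% (3 of 75 counts; interval 0.8 to 11.2%), and in control 1 it was 0 of 11 (upper bound 28.5%). The share of control 2 therefore lay below those of the knockouts, and its interval met that of knockout 1 alone, between 11.1 and 11.2%. Arid1a itself was not low in control 2, with 3 counts where 1.48 were expected at the pooled knockout share. Arid1b, Arid2, Smarca2 and Smarcc2 gave 65 of the 75 counts there, which lowers the share of Arid1a. Intervals and floors here and below cover counting error only.

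**Figure D1:**
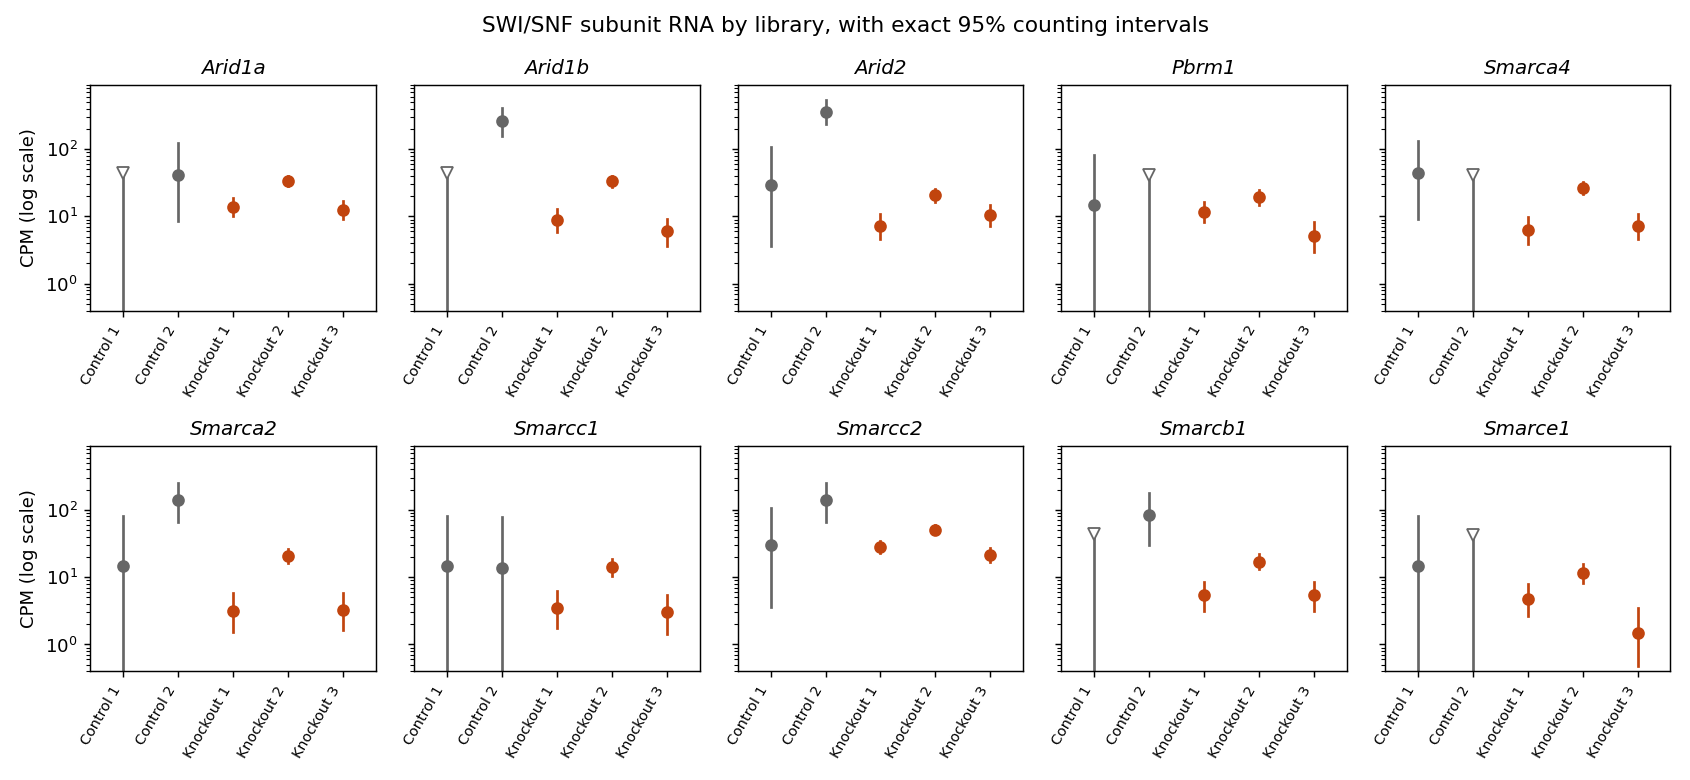
CPM of each subunit on a log axis for the 2 control libraries (grey) and the 3 knockout libraries (red), where points are single libraries. Vertical lines are exact 95% counting intervals for libraries with a count. Open triangles mark the 3-count limit of libraries with 0 counts, where their lines end. The control intervals are far wider than the knockout ones, and knockout 2 is above knockouts 1 and 3 for each of the 10.

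Arid1b, the paralogue that takes the place of Arid1a in canonical BAF, had 0 and 19 control counts and 28, 119 and 20 knockout counts. This equalled 0 and 264 CPM against 8.87, 33.3 and 5.98 CPM. Control 2 was the high library and control 1 was empty, so the groups overlapped. The log2 fold change was -3.04 ± 1.33 (SE; edgeR adjusted p = 0.264). All 19 control counts came from control 2, where 1.19 were expected at the pooled knockout share.

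The ratio of Arid1a to Arid1b does not depend on library scaling. It was 1.57 (exact 95% interval 0.957 to 2.62), 1.02 (0.783 to 1.32) and 2.1 (1.21 to 3.78) in knockouts 1, 2 and 3, and 1.24 (1.01 to 1.53) in their pooled counts. Knockout RNA thus held at least as many Arid1a as Arid1b reads in each library, over transcripts of 8187 and 11325 bases. Control 2 had a ratio of 0.158 (0.0299 to 0.536), below all 3 knockouts and with an interval that does not meet theirs. Control 1 had no count of either gene and gives no ratio. Pooled, the ratio was 7.82 times higher in the knockouts (exact conditional 95% interval 2.25 to 41.9), in the direction opposite to a loss of Arid1a reads. It rests on control 2 alone and cannot be computed without that library. Over the 5 libraries, with 0.5 added to each count, the log2 ratio was 0.57 ± 0.52 in the knockouts (SD, n = 3). In the controls it was -1.24 ± 1.75 (SD, n = 2), where the value of control 1, 0.0, comes from the added 0.5 alone. The exact two-sided permutation test gave p = 0.2, the smallest that this design allows, and 0.6 after adjustment over the 3 pairs. As the value of control 1 was not measured, this test cannot decide whether the ratios differ.

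**Figure D2:**
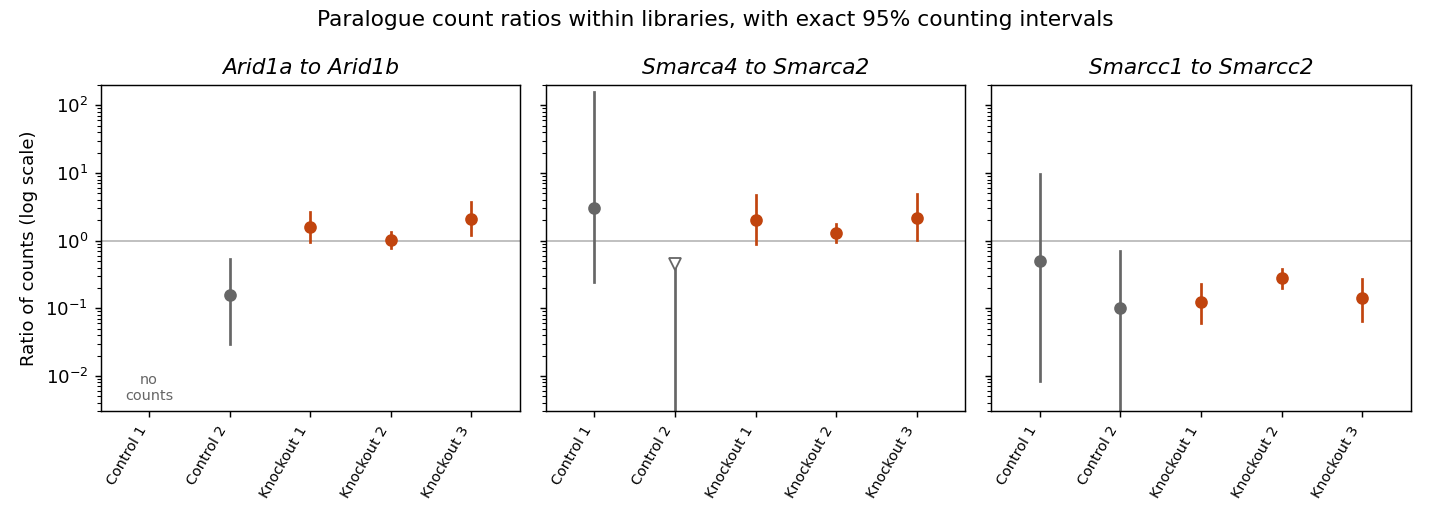
Ratio of counts between paralogues within each library on a log axis, for Arid1a to Arid1b, Smarca4 to Smarca2 and Smarcc1 to Smarcc2, with exact 95% intervals; the open triangle is an upper bound where the first gene had 0 counts. The knockout ratios run from 1.02 to 2.1, 1.3 to 2.18 and 0.124 to 0.276 in the 3 pairs, the control intervals are wider, and control 1 has no ratio for the ARID pair.

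Arid2 and Pbrm1 mark the PBAF form. Arid2, its ARID-domain subunit, had 2 and 26 control counts and 23, 74 and 35 knockout counts, equal to 29.6 and 361 CPM against 7.29, 20.7 and 10.5 CPM. Both controls lay above all 3 knockouts. Arid2 was the single member without overlap between the groups, where 11.2% of all 8291 tested genes were without overlap and lower in the knockouts. The log2 fold change was -3.93 ± 1.27 (SE; edgeR adjusted p = 0.0761). Without control 1 the value was -4.81 and without control 2 it was -1.20, each against 1 control library. Its size thus follows control 2. Against control 1 alone the pooled ratio of knockout to control was 0.443 (exact 95% interval 0.12 to 3.69), and against control 2 alone it was 0.0363 (0.0237 to 0.0576).

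Pbrm1, the bromodomain subunit of PBAF, had 1 and 0 control counts and 37, 69 and 17 knockout counts, equal to 14.8 and 0 CPM against 11.7, 19.3 and 5.08 CPM. The groups overlapped, and the log2 fold change was 0.73 ± 2.06 (SE; edgeR adjusted p = 0.856). Arid2 and Pbrm1 thus stood at 28 and 1 counts in the pooled controls but at 132 and 123 in the pooled knockouts.

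Smarca4 and Smarca2 are the alternative ATPases. Smarca4 had 3 and 0 control counts and 20, 96 and 24 knockout counts, equal to 44.4 and 0 CPM against 6.34, 26.9 and 7.17 CPM. Smarca2 had 1 and 10 counts against 10, 74 and 11, equal to 14.8 and 139 CPM against 3.17, 20.7 and 3.29 CPM. By CPM, control 1 lay above all knockouts for Smarca4 and control 2 for Smarca2, but only the Smarca2 value was beyond counting error. For Smarca4 the ratio of the pooled knockouts to control 1 was 0.313 (exact interval 0.105 to 1.54). For Smarca2 the ratio to control 2 was 0.0679 (0.0354 to 0.146). Neither gene passed the test, with log2 fold changes of -0.69 ± 1.62 for Smarca4 (SE; edgeR adjusted p = 0.823) and -3.08 ± 1.46 for Smarca2 (SE; edgeR adjusted p = 0.326).

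The ratio of Smarca4 to Smarca2 was 2 (exact 95% interval 0.894 to 4.78), 1.30 (0.948 to 1.78) and 2.18 (1.03 to 4.93) in knockouts 1, 2 and 3. Smarca4 was the more counted ATPase in each, over transcripts of 6376 and 5921 bases. In the controls the ratio was 3 in control 1 (3 against 1 count; 0.241 to 157) and 0 in control 2 (0 against 10 counts; upper bound 0.446). The 2 controls lay on either side of all 3 knockouts. Pooled, the ratio was 5.37 times higher in the knockouts (exact conditional 95% interval 1.37 to 30.8), and without control 2 it was 0.493 times the control value (0.00926 to 6.24). The exact permutation test over libraries gave p = 0.8 (two-sided, 0.8 adjusted).

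Smarcc1 and Smarcc2 form the scaffold around which the complex assembles. Smarcc2 was the most counted subunit in all 3 knockouts, with 2 and 10 control counts and 89, 181 and 71 knockout counts. This equalled 29.6 and 139 CPM against 28.2, 50.7 and 21.2 CPM. Smarcc1 had 1 and 1 counts against 11, 50 and 10, equal to 14.8 and 13.9 CPM against 3.49, 14 and 2.99 CPM. Both genes overlapped between the groups, and their log2 fold changes were -1.34 ± 1.35 for Smarcc2 (SE; edgeR adjusted p = 0.604) and -1.06 ± 1.78 for Smarcc1 (SE; edgeR adjusted p = 0.742).

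Smarcc1 was the minor member of the pair in every library. Its ratio to Smarcc2 was 0.124 (exact 95% interval 0.0596 to 0.232), 0.276 (0.198 to 0.38) and 0.141 (0.0648 to 0.274) in knockouts 1, 2 and 3, over transcripts of 5773 and 4562 bases. The controls had 0.5 (1 against 2 counts; 0.00847 to 9.60) and 0.1 (1 against 10 counts; 0.0023 to 0.703). Pooled ratios were 0.208 in the knockouts and 0.167 in the controls. Their quotient of 1.25 had an exact conditional interval of 0.269 to 11.7, which spans a fall and a rise, so no difference was detectable at this depth. The exact permutation test gave p = 0.6 (two-sided, 0.8 adjusted).

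Smarcb1 and Smarce1 complete the core. Smarcb1, a core subunit and tumour suppressor of rhabdoid tumours, had 0 and 6 control counts and 17, 61 and 18 knockout counts, equal to 0 and 83.3 CPM against 5.39, 17.1 and 5.38 CPM. Smarce1, the HMG-box subunit, had 1 and 0 counts against 15, 41 and 5, equal to 14.8 and 0 CPM against 4.75, 11.5 and 1.49 CPM. One control lay above and one below all knockouts for both genes. Log2 fold changes were -2.17 ± 1.46 for Smarcb1 (SE; edgeR adjusted p = 0.542) and -0.29 ± 2.11 for Smarce1 (SE; edgeR adjusted p = 0.95).

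Across the table, none of the 10 subunits passed the edgeR test in either direction, where 1.80% of the 8291 genes tested were called, 0.193% higher and 1.60% lower. At an unadjusted p under 0.05 there were 3 members, Arid1b, Arid2 and Smarca2, against 12.9% of all genes. DESeq2 also called 0 members, with 1 at an unadjusted p under 0.05. Of the 16968 genes it tested, 485 were called higher, 455 were called lower and 2641 had such a p. With limma-voom 0 members were called and 2 had an unadjusted p under 0.05. Of its 8291 genes, 0 were called higher, 113 were called lower and 800 had such a p. The members' median log2 fold change was -1.20 beside 0.22 over all tested genes, of which 33.5% had no control count, whereas each member had at least 1. Setting such genes at the floor of 3 counts over both controls moved the median over all tested genes to -1.11. No member was at 0, so the floor touched none of them (median of pooled log2 ratios -1.18), and the 2 medians cannot be compared independently of the floor.

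**Figure D3:**
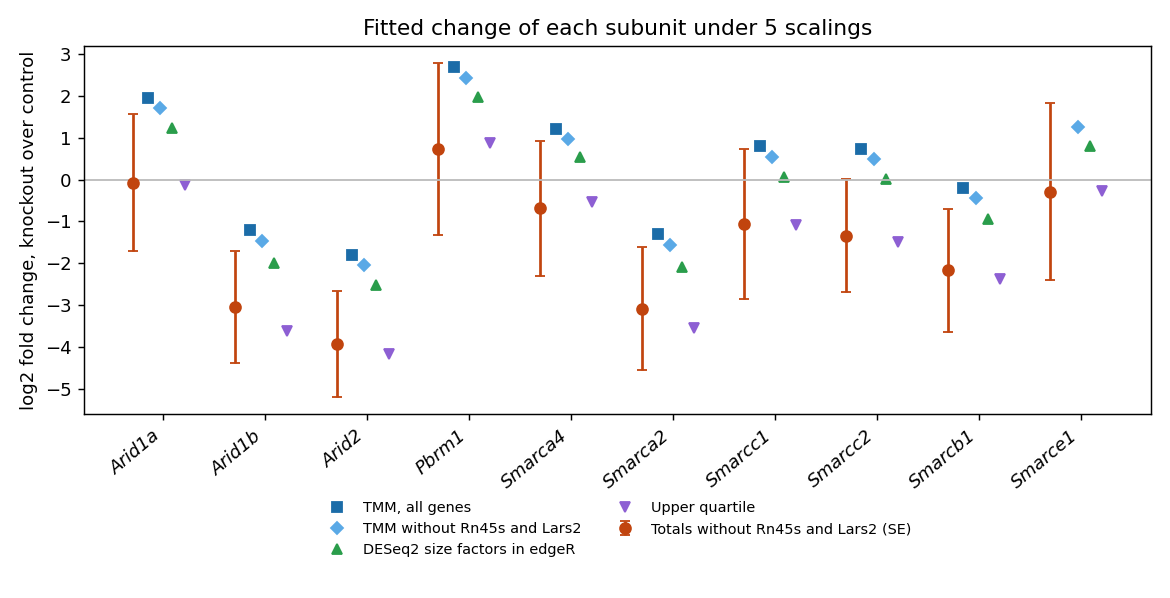
Fitted log2 fold change, knockout over control, of each subunit under 5 ways of scaling the libraries; the red points are the values given in the text, with bars of 1 SE. Arid1b, Arid2, Smarca2 and Smarcb1 are below 0 under all 5, while Arid1a, Smarca4, Smarcc1, Smarcc2 and Smarce1 lie on either side of 0; Smarce1 was not tested with TMM on all genes.

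Control 2 stood apart in this group. The 10 subunits summed to 11 counts in control 1 and 75 in control 2, or 163 and 1042 CPM, against 93.2, 248 and 75.6 CPM in the knockouts. The sum of control 1 was within counting error of the pooled knockouts, with a knockout to control ratio of 0.873 (exact 95% interval 0.487 to 1.75). Against control 2 it was 0.137 (0.108 to 0.175). Arid1b, Arid2, Smarca2 and Smarcc2 gave 65 of its 75 counts while Pbrm1, Smarca4 and Smarce1 gave 0.

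Counts in control 2 were clumped for other genes as well. Among the 4717 genes whose mean knockout level lay in the range of the subunits, 5.91 to 33.4 CPM, the variance of the count over its mean was 18.0 in control 2 and 5.62 in control 1. In control 2, 64.3% of these genes had 0 counts and 4.32% had 10 or more. Of the subunits, 3 of 10 had 0 counts and 4 of 10 had 10 or more, a limit chosen after the values were seen. The part of this clumping in the differences above was not tested.

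**Figure D4:**
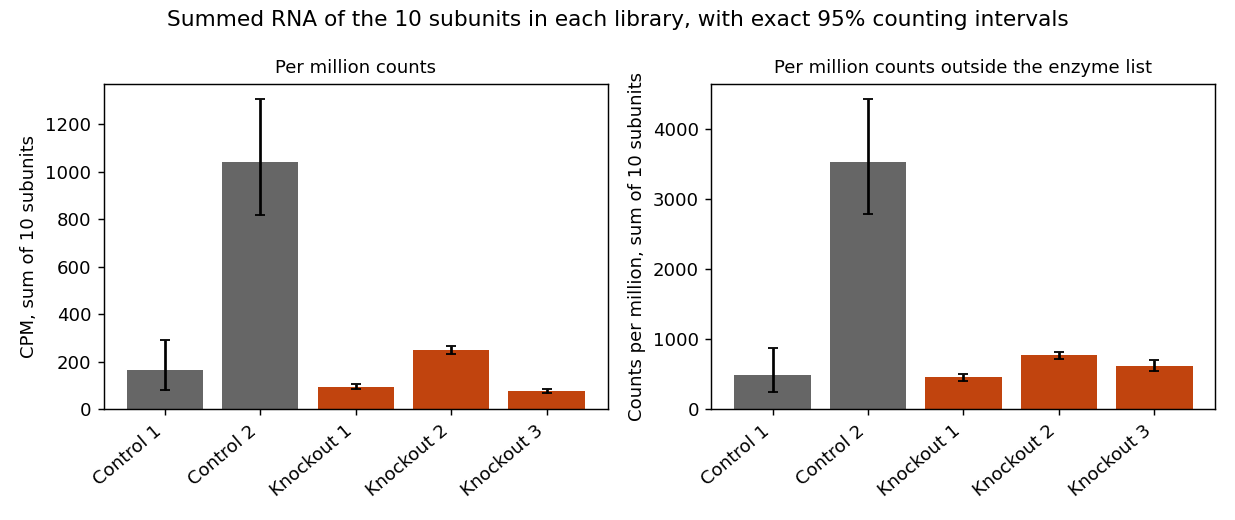
Sum of the 10 subunits in each library as CPM (left) and as CPM of the total outside the acinar enzyme list (right), with exact 95% counting intervals as bars. Control 2 stands above all others on both scales, and the spread between knockouts, 75.6 to 248 on the left, narrows to 453 to 768 on the right.

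Among the knockouts, knockout 2 was highest for all 10 subunits, as it was for 92.9% of the 4717 genes of like level. The median fold over the next knockout was 2.8 for the subunits and 1.88 for those genes. Enzyme and granule genes took 67.7% of the counts of knockout 2 but 79.4% and 87.7% of those of knockouts 1 and 3. As CPM of the total outside these genes, the summed subunits stood at 453, 768 and 616 in knockouts 1, 2 and 3, a 1.7-fold range in place of 3.28-fold. On that scale knockout 2 was highest for 8 of 10 subunits and for 2762 of the 4717 genes. Arid1a ranged 1.55-fold on this scale in place of 2.7-fold, and Smarca2, the most variable member outside the enzymes, 4.17-fold.

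Summed markers of 6 other cell types were highest in knockout 2 by CPM, as were 92.9% of the 4717 genes of like level. Outside the enzyme genes 5 of the 6 lists were so too, beside 2762 of those 4717 genes. The 9 duct markers summed to 412, 1360 and 286 CPM in knockouts 1, 2 and 3, and the 10 islet markers to 180, 985 and 220 CPM. The 10 macrophage markers summed to 144, 481 and 122 CPM, the 10 lymphocyte markers to 17.7, 88.3 and 23 CPM, the 7 endothelial markers to 106, 133 and 26 CPM, and the 8 mesenchymal markers to 90, 219 and 35.6 CPM. Of the 1717 macrophage-list counts in knockout 2, Cd74, H2-Aa and H2-Ab1 gave 1006, 277 and 232. Outside the enzyme genes the endothelial sum was 513, 410 and 212 in knockouts 1, 2 and 3, with knockout 1 highest. In the controls these 6 lists ranged by CPM from 0 CPM, for endothelial markers in control 1, to 800 CPM, for duct markers in the same library. Of the 54 markers, 40 were at 0 in control 1 and 38 in control 2. Their part in the subunit levels was not tested.

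Per transcript length, Smarcc2 and Smarcb1 led in the knockouts. Smarcc2 stood at 7.32 ± 3.38 CPM per kilobase (SD, n = 3) and Smarcb1 at 5.59 ± 4.07. Arid1a followed at 2.46 ± 1.46, then Smarca4 at 2.11 ± 1.83 and Smarce1 at 2.03 ± 1.75. Smarca2, Pbrm1, Arid2 and Arid1b lay between 1.42 and 1.53, and Smarcc1 was lowest at 1.18 ± 1.08. All neighbours in this order differed by less than the larger of their SDs. These SDs include the higher level of knockout 2 in all 10 genes. Within each knockout library Smarcc2 ranked first and Smarcb1 second, at 6.18 and 3.25, 11.1 and 10.3, and 4.65 and 3.24 in knockouts 1, 2 and 3. Lengths are those of the longest coding transcript, and with the mean length of the coding transcripts Smarca2 moved from the sixth to the second place, at 5.94 ± 6.62, since its 27 annotated coding transcripts have a mean length of 1527 bases.

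**Figure D5:**
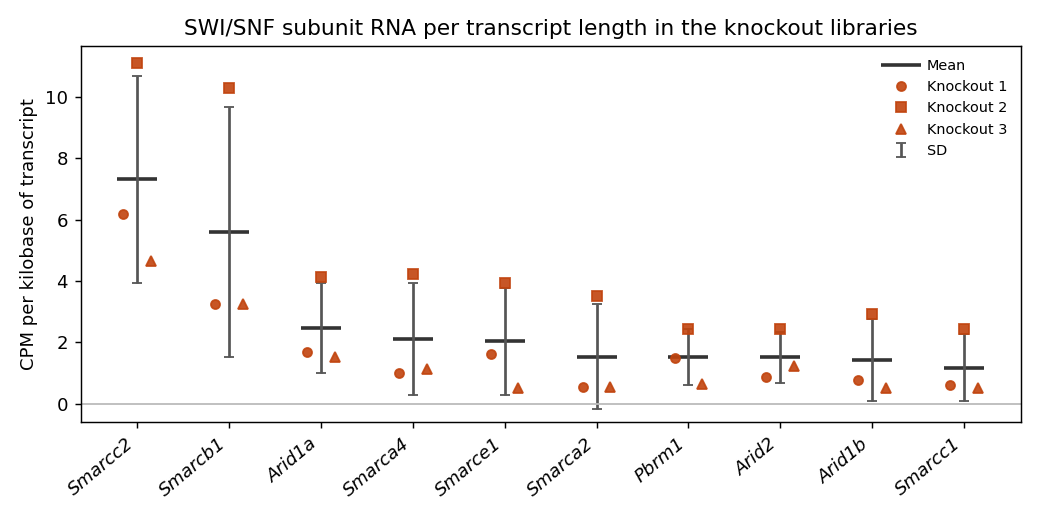
CPM per kilobase of the longest coding transcript for each subunit in the 3 knockout libraries (symbols), with the mean (dash) and SD (bars), in descending order of the mean. Smarcc2 and Smarcb1 rank first and second in each of the 3 libraries, and the ranges of the other 8 overlap.

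The gene pattern most like that of Arid1a was sought over the 3 knockout libraries. Likeness was the root mean square difference of log2 CPM, each gene centred on its own mean, among 2852 genes with at least 20 counts in each knockout. The nearest were Ppil2 (0.00364), Psmd1 (0.0125), Prpf19 (0.0176), Pxn (0.0182) and Pdzd8 (0.0191). The counting interval of Arid1a itself, 9.05 to 17 CPM in knockout 3, is far wider than these distances, so the order among near genes is not settled. In the controls, which the measure does not use, Arid1a had 0 and 3 counts and Prpf19, a splicing factor, 0 and 33. Ppil2, a U-box protein of the cyclophilin family, had 12 and 0, Psmd1 2 and 8, Pxn 7 and 3, and Pdzd8 6 and 1. Of the subunits with enough counts, Smarcc2 came closest at 0.179, rank 256 of 2851, followed by Arid2 at 0.28, Smarca4 at 0.33 and Arid1b at 0.43. With 3 libraries this describes a shared order of knockout 2 over knockouts 1 and 3, and 318 genes lay within 0.2.

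Most of the other subunits of these complexes had no control count. Smarcd2 was no sparser than the 10 members, with 376 pooled knockout counts against 341 for Smarcc2. Of 20 further SWI/SNF genes in the tables, 13 had no control count and 11 were tested, with 0 called in either direction by edgeR and 0 at an unadjusted p under 0.05. Summed, they reached 118 and 250 CPM in the controls against 105, 214 and 57.1 CPM, so the groups overlapped. Smarcd2, an accessory core subunit, had 0 and 11 control counts and 95, 224 and 57 knockout counts, with a pooled knockout to control ratio of 0.474 (exact 95% interval 0.262 to 0.957). Bcl7b, an auxiliary subunit, had no control count and 26, 65 and 20 counts in the knockouts. Its knockout levels of 5.98 to 18.2 CPM lie under the control floor of 21.5 CPM, so no fold is given.

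Remodellers and chromatin regulators outside SWI/SNF were likewise not called. Of 27 tested ISWI, CHD and INO80 genes edgeR called 0, with 2 at an unadjusted p under 0.05 (the remodeller ATPases Chd2 and Chd8, named after their values were seen, at -3.61 ± 1.44 and -3.22 ± 1.33), and of 17 tested Polycomb genes 0, with 0. Of 10 tested RNA polymerase II subunits it called 0, with 0 at an unadjusted p under 0.05. Fitted median log2 fold changes were -0.06, -0.07 and 0.65 for these 3 lists and 6.30 for the other SWI/SNF subunits, beside 0.22 over all tested genes. With genes lacking control counts (30% to 54.5% of each list) placed at the floor, the medians were -1.63, -1.25, -1.30 and -1.71, beside -1.11, so the sign of the last 2 lists depends on how a control count of 0 is treated. Mbd3, a NuRD subunit, had 5 and 3 control counts and 138, 266 and 159 knockout counts (pooled ratio 0.975, exact 95% interval 0.491 to 2.27), and Chd4, the NuRD ATPase, 1 and 4 against 89, 281 and 24 (1.09, 0.464 to 3.38). Cbx6, a Polycomb chromodomain protein, had 10 and 12 against 64, 294 and 25 (0.241, 0.157 to 0.389), and Kdm6b, a demethylase that opposes Polycomb, 0 and 6 against 87, 225 and 15 (0.755, 0.343 to 2.07). Polr2e and Polr2f, shared subunits of the RNA polymerases, had pooled ratios of 3.04 (1.04 to 14.8) and 2.05 (0.563 to 17).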

How the data were processed

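RNA was sequenced in 2 control and 3 knockout libraries (TruSeq RNA v2 kit, per the labels' protocols). The deposited files hold raw read counts per gene symbol, 1 library each. The submitters' processing notes name, without roles, build mm9 and the tools HTSeq 0.9.1 (a counter), TopHat2 2.1.1 (an aligner), and Cuffdiff 2.2.1.5 beside Cuffnorm 2.2.1.2. The sources used here give no annotation or strand setting.

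Rn45s and Lars2 were removed, and the remaining total (67514 to 3568906) served as library size. edgeR 4.0.16 (glmQLFit, robust; glmQLFTest; two-sided, Benjamini-Hochberg, R 4.3.3) tested the 8291 genes kept by filterByExpr, and calls used an adjusted p under 0.05. It was tested on simulated data. The SE of an edgeR log2 fold change was taken as its absolute value over the square root of the F statistic of the test. Ratios and intervals used scipy 1.17.1 with exact 95% limits. The floor is 3 counts. Alternatives were other scalings, filters, DESeq2 1.42.0, limma-voom 3.58.1, a replicate block, each library left out, another pseudocount, pooling and transcript length. Lengths and sequences came from GENCODE M21 (GRCm38); as builds differ, no coordinates are given. All 10 symbols matched.

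All 10 members were named; from other chromatin lists, called genes or else the 2 most abundant in knockouts, with Chd2 and Chd8 added after their values were seen. Members and lists were chosen with earlier results of these data known.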

Additional observations from a re-analysis of the deposited data

How the results depend on the processing

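Genes called lower numbered 133 and genes called higher 16. Higher calls became 1469 with TMM on all genes, 147 with TMM without Rn45s and Lars2, 25 with library sizes without enzymes, 485 with DESeq2, 0 with limma-voom (800 at an unadjusted p under 0.05) and 4 with the replicate block. Lower calls became 71 with that second TMM, 81 with DESeq2 size factors, 354 with upper quartile, 898 without a filter, 388 with a filter of 1 CPM, 455 with DESeq2 and 5 with the replicate block. Leaving out 1 library gave 0 to 19 higher and 4 to 378 lower calls, the fewest without knockout 1. Members called lower and members called higher were 0 in every setting that kept both controls. Leaving out a control sets the knockouts against 1 library, so such fits are given by effect size only. Without control 1, Arid1b stood at -4.03 and Arid2 at -4.81, and without control 2 they stood at 8.35 and -1.20. The cause of these shifts was not tested.

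Arid2 and Smarca2 kept a negative log2 fold change in 15 of 15 alternatives. Values with the other sign, in the order TMM on all genes, TMM without both genes, DESeq2 size factors and DESeq2, were 1.94, 1.71, 1.24 and 1.26 for Arid1a, 1.21, 0.97, 0.54 and 0.57 for Smarca4, 0.79, 0.54, 0.07 and 0.09 for Smarcc1, and 0.74, 0.50, 0.02 and 0.04 for Smarcc2. For Smarce1, untested in the first, they were 1.26, 0.80 and 0.81. Library sizes without enzymes gave 0.40 for Arid1a and 0.09 for Smarce1, the replicate block 0.65 and 0.06, and limma-voom -0.22 for Pbrm1. The first 3 scalings moved the median of all genes from 0.22 to 2.41, 1.93 and 1.49, and DESeq2 to -0.16. With 1 library left out, values ranged from -1.05 to 8.68 for Arid1a, -4.14 to 8.35 for Arid1b, -0.30 to 7.94 for Pbrm1, -1.72 to 8.10 for Smarca4, -3.16 to 7.57 for Smarcb1, -2.05 to 0.17 for Smarcc2 and -1.32 to 6.92 for Smarce1. Values of 6.92 and above are fits against a control without counts and are no bound.

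The log2 difference of Arid1a to Arid1b, 1.81, ran from 0.57 (without control 2) to 3.05 with 1 library left out. The value of 0.57 sets the knockouts against control 1 alone, which had no count of either gene. It therefore comes from the pseudocount on the control side and measures no difference between the groups. For Smarca4 to Smarca2 the difference was 2.39, and it ran from -0.41 (without control 2) to 5.20 with 1 library left out. For Smarcc1 to Smarcc2 it was -0.75, with 0.07 from pooled counts and -1.79 to 0.28 with 1 library left out. With the replicate block the 3 were 1.57, 2.25 and -0.63. Between libraries sharing the numbers 1 and 2, deviations from group means correlated at -0.01 and 0.04. The deviations of 2 controls mirror each other and rest on few counts, so this cannot decide whether the numbers pair the libraries. The controls' depth limits every comparison between the groups.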
